A study of Mus musculus with 12 samples.

Results

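Splenic dendritic cells (DCs) of mice that lack Slc29a3 were compared with those of wild-type mice after both had been exposed to bacteria. The comparison sets the 3 libraries labelled KO treated against the 3 labelled WT treated, 6 of the 12 libraries of the series. It covers every gene of the deposited count table. The spread behind the p-values was estimated from all 12 libraries. KO cells carried the genotype SLC29A3-/- on C57BL6, and WT cells came from C57BL6 mice. The cells of both groups received an attenuated Salmonella typhimurium strain labelled STmDfla. Per the series design they were exposed for 30 min at a multiplicity of infection (MOI) of 10, washed, and cultured for 3 h more, while the sample labels give only a treatment of 3 h. KO untreated and WT untreated cells, again 3 libraries each, got no bacteria and serve here for a comparison of the genotype difference with and without bacteria. For all groups, T, B and natural killer cells were depleted from spleen suspensions with antibodies to CD49b, CD45R and CD90.2, and CD11c+ cells were selected on magnetic columns. The labels describe the product as a mixture of the 2 conventional DC subsets, cDC1 (CD8+) and cDC2 (SIRPα+), checked by flow cytometry. The label SLC29A3-/- names no promoter or cell type, so that no restriction of the deletion to DCs is given. The labels give no age, do not say which part of Slc29a3 is deleted, and do not state that libraries of 1 group stem from different animals. In each group library 1 had reads of Y-linked genes and libraries 2 and 3 had reads of Xist, the RNA that silences the second X chromosome, so that each group held cells of at least 2 animals. Whether libraries 2 and 3 stem from different animals is not stated, and p-values measure the spread between libraries, whatever its source.

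Slc29a3 encodes ENT3, an equilibrative nucleoside transporter of late endosomes and lysosomes, which lets nucleosides from degraded DNA and RNA leave the organelle for the cytosol. People who lack it develop histiocytosis, an accumulation of macrophages, and macrophages have also been described to build up in mice that lack it. DCs sense bacteria through Toll-like receptors (TLRs) at the surface and in phagosomes, and answer within hours with cytokines, interferon-stimulated genes and more costimulatory molecules. Lysosomes bear on this because they degrade the bacteria, hold the nucleic acid sensing TLRs, and through the calcium channel TRPML1 and the transcription factor TFEB tie their own state to autophagy. The series title names ENT3's part in phagosomal signalling and in TRPML1-driven autophagy as the question of the study.

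Slc29a3 itself (gene ENSMUSG00000020100, mm10 chromosome 10, 60712072 to 60752794, minus strand) was still counted in KO cells. Its level was 147, 191 and 124 CPM in KO treated, against 197, 233 and 207 CPM in WT treated cells, with libraries in the order 1 to 3 here and below. CPM are counts over library sizes that TMM factors correct for composition. The groups did not overlap, but the difference did not pass the threshold of 0.05 (log2 fold change of KO treated over WT treated, log2FC, -0.46, standard error (SE) 0.17, edgeR adjusted p = 0.0806). With the library number as a block it passed (log2FC -0.48, edgeR adjusted p = 0.0383), and without KO treated library 2 it passed too (edgeR adjusted p = 0.0374). Because the deleted part is not stated and counts are given per gene, these values do not check the genotype labels.

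Of 14293 tested genes, 1317 were higher in KO treated than in WT treated cells (9.21%) and 699 were lower (4.89%), at an edgeR adjusted p under 0.05. The 6 libraries held between 15693172 and 24074596 counts, at least 99.89% of them in tested genes. The changes were unequal in size. Among the higher genes the median log2FC was 1.57, 941 were at least 2-fold and 529 at least 4-fold higher, and 56 had no count in any WT treated library. Among the lower genes the median was -0.64, 152 were at least 2-fold and 25 at least 4-fold lower. Of the calls, 1271 higher and 683 lower genes had groups that did not overlap, against 15.6% and 13.2% of all tested genes that lay apart in these directions. Calls and overlap rest on the same treated libraries, so groups that lie apart, here and below, are no separate support for a call. Over all tested genes the median log2FC was -0.01. When libraries were scaled by their totals, without TMM factors, that median became 0.08 and the calls 1631 higher and 312 lower, so that 83.9% of calls were higher against 65.3% with TMM factors. The counts also moved with single libraries, with 793 higher and 235 lower genes without KO treated library 2, 821 and 209 without KO treated library 3, 796 and 291 without WT treated library 3, and 1767 and 1121 without KO treated library 1. Under the block on library number they were 1748 higher and 1194 lower. Fitted to the 6 treated libraries alone, they were 878 higher and 196 lower. Without KO treated library 1, 25 of the 114 list counts given below or tested with them, 57 lists in both directions, rose by more than 1.5 times and 2 fell as far. Without KO treated library 2, KO treated library 3 or WT treated library 3, 47, 53 and 48 of them fell by more than 1.5 times, and at most 1 rose. Without WT treated library 1 or 2, 19 and 26 fell and 7 and 1 rose as far. The block on library number raised 33 and lowered 2. Every list count below stands against 9.21% higher and 4.89% lower among all tested genes. A gene named below as higher or lower kept its call with each of the 6 libraries left out in turn, unless a library is named beside it.

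**Figure D1:**
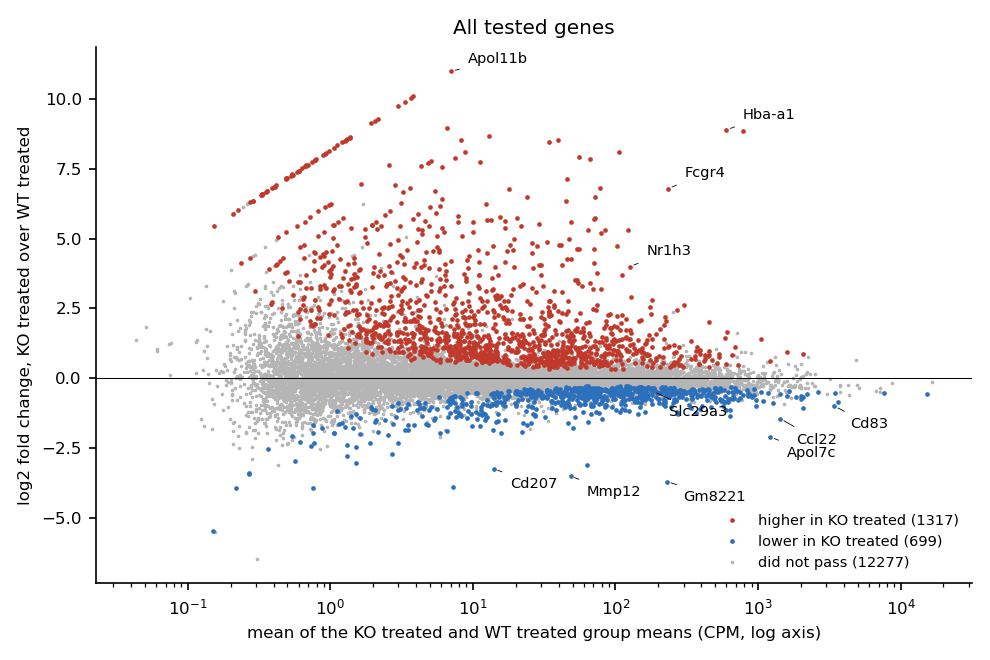
Log2 fold change of KO treated over WT treated cells against the mean of the group means in CPM (log axis) for the 14293 tested genes, with the 1317 higher and 699 lower genes in colour. The higher genes reach much larger fold changes than the lower genes, whose median is -0.64.

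The cells were first checked against marker genes of DCs and of the other cells a spleen suspension can hold. Of 10 genes common to DCs, 3 fell, 1 rose and 6 did not pass (median log2FC -0.41, against -0.01 over all tested genes). Their summed level was 28000.0, 25900.0 and 23900.0 CPM in KO treated cells, against 35900.0, 38600.0 and 35300.0 CPM in WT treated cells, so the groups did not overlap. The sum includes the MHC class II genes Cd74, H2-Aa and H2-Ab1, so it does not measure the share of DCs in a library. The lower members were Zbtb46, a transcription factor of conventional DCs, Cd74, the invariant chain of MHC class II, and Dpp4, a surface peptidase. Zbtb46 had 319.7, 245 and 204 CPM in KO treated, against 417, 410.1 and 454 CPM in WT treated cells (log2FC -0.74, SE 0.17, edgeR adjusted p = 0.0148). Its call ended without KO treated library 2 or 3 or WT treated library 3 (edgeR adjusted p between 0.0573 and 0.0667), and no member was called lower without any 1 of these, while 6 were under the block. Dpp4 was not called without WT treated library 2 either. Itgax, which encodes the CD11c used for selection, lay at 565, 723 and 785 CPM in KO treated, against 713, 787 and 668 CPM in WT treated cells, and these ranges overlapped. The cDC1 list had 3 of 15 members higher and none lower, and the cDC2 list 2 of 14 higher and 1 lower. Of all tested genes 9.21% were higher and 4.89% lower. The cDC1 genes summed to 1610.0, 1150.0 and 1260.0 CPM in KO treated, against 1260.0, 1500.0 and 1090.0 CPM in WT treated cells. The cDC2 genes summed to 1630.0, 1900.0 and 1710.0 CPM in KO treated, against 1710.0, 1780.0 and 1490.0 CPM in WT treated cells. Without KO treated library 3 or WT treated library 3 no cDC1 gene was called, and under the block 4 cDC2 genes were higher and 2 lower.

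Erythroid genes had the largest median difference of the 57 gene lists. All 11 that were tested rose, with a median log2FC of 7.91, or 7.86 with genes absent from WT treated cells set at their lower bound. Summed, they came to 2120.0, 2810.0 and 5300.0 CPM in KO treated cells, against 32.7, 38.2 and 33.0 CPM in WT treated cells. Each KO library thus lay far above each WT library, and KO treated library 3 was the highest. Hbb-bs, a beta-globin gene, had 875, 1261 and 2547 CPM in KO treated, against 0.989, 5.11 and 3.74 CPM in WT treated cells (log2FC 8.86, SE 0.72, edgeR adjusted p = 5.67e-05). Alas2, which starts heme synthesis in red cell precursors, had 72.8, 92.9 and 165 CPM in KO treated, against 0.0706, 0.639 and 0.569 CPM in WT treated cells (log2FC 7.91, SE 0.53, edgeR adjusted p = 3.08e-05). Gata1, the transcription factor that drives red cell development, had 2.94, 4.18 and 0.631 CPM in KO treated cells and no count in any WT treated library, an at least 47.2-fold difference when a floor of 3 counts in the WT group is used. The globin genes Hba-a1 and Hba-a2, and Hbb-bs and Hbb-bt, are near-identical pairs, so the split of reads within a pair is uncertain. In a bulk sample, fewer or more cells of a type and less or more RNA per cell cannot be told apart.

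Neutrophil genes rose in 10 of 14 cases and none fell (median log2FC 4.47). Their summed level was 344, 1460.0 and 190.0 CPM in KO treated cells, against 22.7, 23.5 and 28.3 CPM in WT treated cells. KO treated library 2 stood highest, and the 3 KO libraries differed widely among themselves. S100a8, a calcium-binding alarmin stored in neutrophils, had 55.2, 209.8 and 22.9 CPM in KO treated, against 1.98, 1.98 and 1.99 CPM in WT treated cells (log2FC 5.59, SE 1.10, edgeR adjusted p = 0.00892), a call that limma-voom did not make (adjusted p = 0.0742, and between 5.64e-08 and 0.0742 over the 20 alternatives). Ngp, a neutrophil granule protein, had 67.7, 369 and 23.1 CPM in KO treated, against 1.84, 2.96 and 7.34 CPM in WT treated cells (log2FC 5.2, SE 1.31, edgeR adjusted p = 0.0278), and its call ended without KO treated library 2 or WT treated library 1, 2 or 3 (edgeR adjusted p between 0.0703 and 0.083). Without WT treated library 3 only 3 of the list were called. Csf3r, the receptor for granulocyte colony-stimulating factor, held its call (log2FC 3.71, SE 0.37, edgeR adjusted p = 0.000207), with 33.5, 58.1 and 75.8 CPM in KO treated, against 4.52, 5.81 and 2.56 CPM in WT treated cells.

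The promoters of the genes that set these lists apart are printed here because the same lists are known for particular DNA motifs. Each is the 250 bases before the RefSeq start in GRCm38.p6, 5′ to 3′ on the strand of the gene, with matches in capitals. Hbb-bs (chr7:103827929-103828178, minus strand) holds a GATA motif, AGATAA, 210 bases before the start and a CACCC box, CCACACCC, 93 bases before it. Alas2 (chrX:150547167-150547416, plus strand) holds the GATA motif on the opposite strand 86 bases before its start. Ngp (chr9:110419558-110419807, plus strand) holds the C/EBP motif, TTGCNNAA, 138 bases before its start and, on the opposite strand, 11 bases before it.
Hbb-bs: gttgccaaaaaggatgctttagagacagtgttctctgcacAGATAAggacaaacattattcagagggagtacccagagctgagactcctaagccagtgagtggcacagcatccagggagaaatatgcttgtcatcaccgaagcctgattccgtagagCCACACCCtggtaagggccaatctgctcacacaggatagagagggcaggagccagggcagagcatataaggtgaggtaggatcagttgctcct
Alas2: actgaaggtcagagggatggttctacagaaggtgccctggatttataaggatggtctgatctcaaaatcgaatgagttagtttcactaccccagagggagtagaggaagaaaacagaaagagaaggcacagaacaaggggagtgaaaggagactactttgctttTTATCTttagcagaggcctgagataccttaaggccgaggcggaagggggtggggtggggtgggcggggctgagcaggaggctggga
Ngp: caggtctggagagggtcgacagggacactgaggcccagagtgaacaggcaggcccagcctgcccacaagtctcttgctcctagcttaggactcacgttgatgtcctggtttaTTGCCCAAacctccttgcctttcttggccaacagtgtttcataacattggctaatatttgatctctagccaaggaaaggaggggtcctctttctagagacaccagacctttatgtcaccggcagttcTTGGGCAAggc
Both strands were searched. The GATA motif was in 3 of 8 erythroid promoters with a RefSeq entry, 37.5%, against 9.99% of all 32851 RefSeq promoters, and the CACCC box in 1 of these 8, against 3.2% of all. The C/EBP motif was in 7 of 13 neutrophil promoters, 53.8%, against 9.56% of all. A match describes these letters and is neither a site nor a cause.

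Red pulp macrophages clear aged red cells and recycle their iron. Of 16 tested genes of these cells, 11 rose, none fell and 5 did not pass (median log2FC 2.31). Summed, they gave 1380.0, 2680.0 and 4320.0 CPM in KO treated cells, against 536, 973 and 725 CPM in WT treated cells, with no overlap and KO treated library 3 again the highest. Between 9 and 12 members were called with single libraries left out. Cd5l, a secreted macrophage survival protein, had 46.6, 87.6 and 133 CPM in KO treated, against 1.55, 1.8 and 0.0948 CPM in WT treated cells (log2FC 6.35, SE 0.76, edgeR adjusted p = 0.000547). Slc40a1, the iron exporter ferroportin, had 28.9, 39.0 and 95.7 CPM in KO treated, against 2.75, 3.66 and 3.32 CPM in WT treated cells (log2FC 4.06, SE 0.55, edgeR adjusted p = 0.000971). Spic, the transcription factor that red pulp macrophages need, had 181, 319.7 and 583 CPM in KO treated, against 70.2, 94.6 and 98.1 CPM in WT treated cells (log2FC 2.04, SE 0.38, edgeR adjusted p = 0.00486). Vsig4, a complement receptor of tissue macrophages, had no count in any WT treated library and was counted in KO treated cells. Its KO level is not given here, so no size of a difference is stated. Monocyte genes rose in 9 of 15 cases and fell in 1 (median 2.28), with summed levels of 1290.0, 1610.0 and 1790.0 CPM in KO treated cells, against 1120.0, 1050.0 and 1270.0 CPM in WT treated cells. The lower monocyte call did not stand without KO treated library 2 or 3 or WT treated library 3. Csf1r, the receptor for macrophage colony-stimulating factor, had 176, 288 and 484 CPM in KO treated, against 60.4, 35.7 and 38.9 CPM in WT treated cells (log2FC 2.81, SE 0.42, edgeR adjusted p = 0.00168).

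Among the remaining cell type lists, plasma cell genes rose in 3 of 9 cases, B cell genes in 1 of 13 and plasmacytoid DC genes in 2 of 12, and none of these fell. Of 14 T cell genes none passed (median log2FC -0.47), but 3 were lower under the block, and of 6 natural killer cell genes 1 rose and 1 fell. The B cell call, of Ighm, the heavy chain of IgM, ended without KO treated library 1, 2 or 3 or WT treated library 1, 2 or 3 (edgeR adjusted p between 0.0504 and 0.144), and the block called 2 B cell genes higher and 1 lower. Nor did either natural killer cell call stand without KO treated library 2 or 3 or WT treated library 2 or 3, nor the lower one without WT treated library 1, and 1 plasmacytoid DC gene was called without KO treated library 3 or WT treated library 3. Only 4 of 13 endothelial and stromal genes could be tested, of which 2 rose (median log2FC 2.35). Their list summed to 109, 193 and 224 CPM in KO treated cells, against 29.3, 26.4 and 18.8 CPM in WT treated cells. Col3a1 and Dcn had no count in either group, Col1a2 and Madcam1 none in KO treated cells and Col1a1 none in WT treated cells. Kdr, a vascular receptor, had 23.7, 71.6 and 58.6 CPM in KO treated, against 9.61, 15.2 and 10.5 CPM in WT treated cells (log2FC 2.12, SE 0.38, edgeR adjusted p = 0.00395). B cell genes summed to 939, 1020.0 and 1070.0 CPM in KO treated cells, against 664, 689 and 402 CPM in WT treated cells. Plasmacytoid DC genes summed to 403, 450.0 and 408 CPM in KO treated, against 370.0, 332 and 374 CPM in WT treated cells. The sums of these lists and of the erythroid, neutrophil, macrophage, monocyte and stromal lists lay apart between the groups. The part of such cells in each result below was not tested. The same lists differed without bacteria, as erythroid genes summed to 2100.0, 2380.0 and 4120.0 CPM in KO untreated cells, against 35.8, 40.1 and 38.5 CPM in WT untreated cells.

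**Figure D2:**
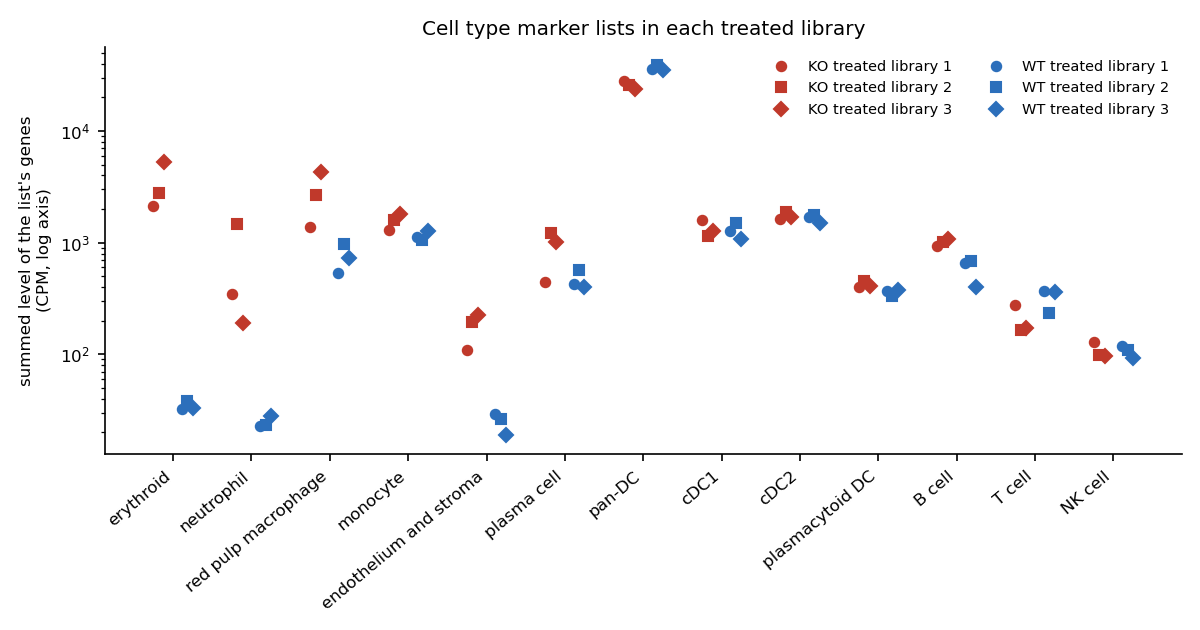
Summed level in CPM (log axis) of each cell type marker list in the 3 KO treated and the 3 WT treated libraries, 1 symbol per library (circle, square and diamond for libraries 1, 2 and 3). Erythroid, neutrophil, red pulp macrophage, monocyte, stromal, B cell and plasmacytoid DC genes lie apart with KO above WT. DC genes lie apart with KO below WT. Plasma cell, cDC1, cDC2, T cell and natural killer cell genes overlap.

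Interferon-stimulated genes limit intracellular microbes and are a main output of TLR4 signalling. Of 58 tested effectors, 15 rose in KO treated cells, against 9.21% of all tested genes, none fell and 43 did not pass (median log2FC 0.64). The higher members included 4 guanylate-binding proteins, GTPases that coat bacterial vacuoles. Gbp3 had 69.0, 170.1 and 220.1 CPM in KO treated, against 39.3, 42.5 and 43.4 CPM in WT treated cells (log2FC 1.87, SE 0.33, edgeR adjusted p = 0.00373). Gbp7 had 74.7, 169 and 233 CPM in KO treated, against 44.2, 47.9 and 42.7 CPM in WT treated cells (log2FC 1.82, SE 0.34, edgeR adjusted p = 0.00508). Gbp5 had 426, 948 and 1193 CPM in KO treated, against 294, 352 and 298 CPM in WT treated cells (log2FC 1.44, SE 0.29, edgeR adjusted p = 0.00743). In each of these genes every KO library lay above every WT library, with KO treated library 1 nearest to the WT values. The count of higher effectors depended on that library, being 37 without it, and 7 without KO treated library 2 or 3. Iigp1, an immunity-related GTPase of the same defence, had 6.11, 21.5 and 12.6 CPM in KO treated, against 0.848, 0.930 and 0.426 CPM in WT treated cells (log2FC 4.2, SE 0.51, edgeR adjusted p = 0.000503). Slfn4, a Schlafen gene of myeloid cells, was highest in KO treated library 2, at 13.3, 39.9 and 8.06 CPM in KO treated, against 1.34, 2.21 and 1.14 CPM in WT treated cells (log2FC 3.71, SE 0.73, edgeR adjusted p = 0.00682). Gbp genes are a family of similar copies, so that reads may be shared between members.

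Among the effectors that did not pass were the abundant Ifit1 and Rsad2. Ifit1, which binds foreign RNA, had 1493, 2938 and 3988 CPM in KO treated, against 1553, 1707 and 1729 CPM in WT treated cells (edgeR adjusted p = 0.231). Rsad2, the antiviral enzyme viperin, had 1135, 2683 and 3173 CPM in KO treated, against 1455, 1843 and 1629 CPM in WT treated cells (edgeR adjusted p = 0.389). In both, KO treated library 1 lay below the WT range and the other two above it. Cxcl10, an interferon-induced chemokine, had 875, 1789 and 2340.0 CPM in KO treated, against 872, 1155 and 885 CPM in WT treated cells (edgeR adjusted p = 0.181, or 0.0473 without KO treated library 1), and Ifnb1, the interferon itself, was low with 8.75, 9.05 and 12.8 CPM in KO treated, against 4.24, 7.44 and 2.75 CPM in WT treated cells (edgeR adjusted p = 0.241). Of 20 genes for type I interferons and their signalling 2 rose, near the 9.21% of all tested genes, and none fell. With single libraries left out between 1 and 4 rose, with 1 without KO treated library 2 or 3 or WT treated library 1 or 3, and without KO treated library 1, 2 fell, or 1 under the block. Among the higher genes was Ikbke, a kinase that activates interferon regulatory factors, with 49.0, 95.4 and 141 CPM in KO treated, against 8.12, 9.41 and 7.44 CPM in WT treated cells (log2FC 3.51, SE 0.46, edgeR adjusted p = 0.000801).

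The promoters of Gbp3 (chr3:142559794-142560043, plus strand) and Gbp7 (chr3:142530086-142530335, plus strand), neighbours on mouse chromosome 3 that rose to a like degree, are shown because interferon acts through known motifs. They are again the 250 bases before the RefSeq start in GRCm38.p6. Capitals mark the interferon-stimulated response element (ISRE), GAAANNGAA, read here on the opposite strand, 44 and 38 bases before the start of Gbp3 in overlapping matches and 52 bases before that of Gbp7. In Gbp7 they also mark the gamma-activated sequence (GAS), TTCNNNGAA, 106 and 87 bases before the start.
Gbp3: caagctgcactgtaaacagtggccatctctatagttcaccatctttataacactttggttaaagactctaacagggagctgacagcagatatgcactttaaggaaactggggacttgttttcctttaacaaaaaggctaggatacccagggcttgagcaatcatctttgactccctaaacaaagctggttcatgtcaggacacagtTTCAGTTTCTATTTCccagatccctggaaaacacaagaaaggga
Gbp7: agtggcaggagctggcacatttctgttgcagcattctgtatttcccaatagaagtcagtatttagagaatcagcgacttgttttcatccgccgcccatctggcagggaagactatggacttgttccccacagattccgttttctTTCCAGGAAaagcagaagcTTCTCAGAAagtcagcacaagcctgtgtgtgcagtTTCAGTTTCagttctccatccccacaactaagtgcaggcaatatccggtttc
The ISRE was in 7 of 12 promoters of higher effectors, 58.3%, in 16 of 35 promoters of effectors that did not pass, 45.7%, and in 7.13% of all RefSeq promoters. The GAS was in 3 of the 12 and 6 of the 35, against 7.02% of all. Both strands were searched.

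Among TLRs, their co-receptors and adaptors, 6 of 32 tested genes rose and 3 fell, against 9.21% and 4.89% of all tested genes, and 23 did not pass (median log2FC -0.13). Tlr4, the receptor for lipopolysaccharide, had 5.63, 8.18 and 17.1 CPM in KO treated, against 1.34, 1.40 and 0.853 CPM in WT treated cells (log2FC 3.11, SE 0.57, edgeR adjusted p = 0.00455), a call that limma-voom did not make (adjusted p = 0.0589, and between 8.10e-08 and 0.0589 over the 20 alternatives). Cd14, which hands lipopolysaccharide to TLR4, had 163, 151 and 209.6 CPM in KO treated, against 60.7, 41.6 and 32.1 CPM in WT treated cells (log2FC 1.97, SE 0.31, edgeR adjusted p = 0.00212). Tlr2, the receptor for bacterial lipoproteins, had 101, 186 and 208 CPM in KO treated, against 50.3, 47.8 and 51.9 CPM in WT treated cells (log2FC 1.72, SE 0.23, edgeR adjusted p = 0.000945). No KO library of these 3 genes overlapped a WT library. Tlr8, an endosomal receptor, had 17.8, 24.5 and 38.0 CPM in KO treated, against 0.424, 1.92 and 0.616 CPM in WT treated cells (log2FC 4.74, SE 0.59, edgeR adjusted p = 0.000624), and Irak3, a kinase relative that restrains TLR signalling, had 29.4, 62.2 and 57.2 CPM in KO treated, against 3.25, 4.94 and 1.66 CPM in WT treated cells (log2FC 3.93, SE 0.44, edgeR adjusted p = 0.000375). Unc93b1, the chaperone of endosomal TLRs, had 193, 238 and 294 CPM in KO treated, against 154, 145 and 139 CPM in WT treated cells (log2FC 0.73, SE 0.16, edgeR adjusted p = 0.0108).

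The endosomal receptors for single-stranded RNA and for DNA best known from mouse DCs did not pass. Tlr7, which senses RNA, had 63.6, 109 and 114 CPM in KO treated, against 86.7, 90.7 and 85.8 CPM in WT treated cells (edgeR adjusted p = 0.785), and Tlr9, which senses DNA, had 107, 148 and 153 CPM in KO treated, against 113, 156 and 131 CPM in WT treated cells (edgeR adjusted p = 0.938). Both overlapped between the groups, as did Myd88, the shared adaptor, with 171, 221 and 292 CPM in KO treated, against 173, 163 and 185 CPM in WT treated cells (edgeR adjusted p = 0.115, or 0.0107 without KO treated library 1). Slc15a4, a lysosomal transporter needed for TLR7 and TLR9 signalling, had 60.3, 64.6 and 63.1 CPM in KO treated, against 61.5, 73.4 and 76.8 CPM in WT treated cells (edgeR adjusted p = 0.511). Cd180, a TLR4-like regulator, was lower with 191, 209.8 and 158 CPM in KO treated, against 268, 382 and 324 CPM in WT treated cells (log2FC -0.80, SE 0.14, edgeR adjusted p = 0.0038). Tlr5, the flagellin receptor, was lower with 5.63, 3.02 and 2.38 CPM in KO treated, against 11.9, 8.37 and 8.96 CPM in WT treated cells (log2FC -1.39, SE 0.34, edgeR adjusted p = 0.0193), a call that ended without KO treated library 2 or 3 or WT treated library 1 (edgeR adjusted p between 0.0557 and 0.084). The number of lower genes in the list was 1 without KO treated library 2 or 3 and 5 under the block.

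Cytokines and chemokines moved in different directions. Of 23 cytokine genes 5 rose, against 9.21% of all tested genes, and none fell (median log2FC 0.54). Without KO treated library 3 only 2 rose. Il10, which restrains inflammation, had 53.5, 74.2 and 131 CPM in KO treated, against 19.0, 26.8 and 14.7 CPM in WT treated cells (log2FC 2.10, SE 0.41, edgeR adjusted p = 0.00625). Il33, an alarmin of the IL-1 family, had 4.01, 9.34 and 23.3 CPM in KO treated, against 0.141, 0.291 and 0.474 CPM in WT treated cells (log2FC 5.24, SE 0.75, edgeR adjusted p = 0.00133). Both were higher in each KO library than in each WT library. Il1a had 45.2, 43.2 and 87.6 CPM in KO treated, against 19.9, 13 and 4.45 CPM in WT treated cells (log2FC 2.25, SE 0.53, edgeR adjusted p = 0.0159), a call that ended without KO treated library 3 (edgeR adjusted p = 0.081). Il6, which drives the acute phase response, had 47.3, 73.2 and 93.2 CPM in KO treated, against 29.0, 43.7 and 38.6 CPM in WT treated cells (log2FC 0.94, SE 0.26, edgeR adjusted p = 0.0312). Its call ended without KO treated library 2 or 3 or WT treated library 1 or 3 (edgeR adjusted p between 0.0865 and 0.135), and that of Il1b (log2FC 0.63, edgeR adjusted p = 0.0394) ended without KO treated library 1, 2 or 3 or WT treated library 2 or 3 (edgeR adjusted p between 0.0645 and 0.121). Tnf had 489, 696 and 769 CPM in KO treated, against 536, 787 and 458 CPM in WT treated cells (edgeR adjusted p = 0.749), and Il12b, a subunit of IL-12 and IL-23, had 1061, 876 and 457 CPM in KO treated, against 807, 2525 and 910.3 CPM in WT treated cells (edgeR adjusted p = 0.233). The Il12b value of WT treated library 2 stood far above the other 5. Socs3, which dampens IL-6 receptor signalling, was higher with 467, 687 and 1034 CPM in KO treated, against 211, 143 and 192 CPM in WT treated cells (log2FC 2.00, SE 0.27, edgeR adjusted p = 0.000883).

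Of 16 chemokines none rose and 4 fell, against 4.89% of all tested genes, although without KO treated library 3 only 1 was called. Ccl9 had 31.5, 52.5 and 44.9 CPM in KO treated, against 87.9, 112 and 156 CPM in WT treated cells (log2FC -1.46, SE 0.29, edgeR adjusted p = 0.00677). Ccl22, which attracts regulatory T cells, had 966, 779 and 569 CPM in KO treated, against 1428, 2504 and 2350.0 CPM in WT treated cells (log2FC -1.44, SE 0.31, edgeR adjusted p = 0.0101), a call that ended without KO treated library 3 (edgeR adjusted p = 0.0547). Both lay lower in each KO library. Of 25 inflammasome genes 5 rose and 3 fell, against 9.21% and 4.89% of all tested genes. Between 3 and 8 were called higher with single libraries left out, with 3 without KO treated library 2 or 3 or WT treated library 2 or 3. Without KO treated library 3, 1 was called lower. Naip2, a sensor for the inner rod of bacterial secretion systems, had 56.0, 138 and 176 CPM in KO treated, against 15.0, 28.1 and 24.0 CPM in WT treated cells (log2FC 2.46, SE 0.40, edgeR adjusted p = 0.00267), and Pycard, the adaptor that joins sensors to caspase-1, had 10.6, 28.6 and 37.2 CPM in KO treated, against 2.61, 4.59 and 2.75 CPM in WT treated cells (log2FC 2.94, SE 0.49, edgeR adjusted p = 0.0027). Mefv, the sensor pyrin, was lower with 96.8, 69.6 and 63.6 CPM in KO treated, against 197, 168 and 157 CPM in WT treated cells (log2FC -1.18, SE 0.17, edgeR adjusted p = 0.00123). Nlrp3, another sensor, was lower too (log2FC -0.63, SE 0.16, edgeR adjusted p = 0.0217), but not without KO treated library 2 or 3 or WT treated library 1 (edgeR adjusted p between 0.0573 and 0.0952).

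Genes of mature DCs were lower where they differed. In the list for migration and cytoskeleton of mature DCs, 7 of 23 genes fell and none rose (median log2FC -0.34). Between 2 and 8 were called with single libraries left out, with 2 without KO treated library 3, and 10 under the block. Samsn1, a signalling adaptor, had 808, 681 and 625 CPM in KO treated, against 1116, 1083 and 1140.0 CPM in WT treated cells (log2FC -0.66, SE 0.14, edgeR adjusted p = 0.00894). Eno2, an enolase, had 81.0, 65.2 and 42.4 CPM in KO treated, against 125, 111 and 146 CPM in WT treated cells (log2FC -1.01, SE 0.22, edgeR adjusted p = 0.0111). In both, each KO library lay below each WT library. Ccr7, the chemokine receptor that leads mature DCs to T cell zones, had 3450.0, 3198 and 2862 CPM in KO treated, against 4759, 4191 and 4216 CPM in WT treated cells (log2FC -0.47, edgeR adjusted p = 0.0904), and passed under the block (edgeR adjusted p = 0.0178, and between 0.0143 and 1 over the 20 alternatives).

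Of 22 costimulators and checkpoint ligands 3 rose and 5 fell, against 9.21% and 4.89% of all tested genes (median log2FC -0.12). Cd83, a maturation marker that stabilises MHC class II at the surface, had 3176, 1890.0 and 1809 CPM in KO treated, against 4600.0, 4769 and 4303 CPM in WT treated cells (log2FC -0.99, SE 0.21, edgeR adjusted p = 0.0085). Tnfsf4, the ligand of the T cell receptor OX40, had 86.5, 82.2 and 73.7 CPM in KO treated, against 143, 133 and 148 CPM in WT treated cells (log2FC -0.81, SE 0.15, edgeR adjusted p = 0.00421). Icosl, the ligand of ICOS, had 533, 381 and 319 CPM in KO treated, against 637, 792 and 673 CPM in WT treated cells (log2FC -0.77, SE 0.16, edgeR adjusted p = 0.00924). No KO library of these 3 reached the WT range. Cd80, a ligand of CD28, had 602, 399 and 416 CPM in KO treated, against 849.7, 747 and 780.4 CPM in WT treated cells (log2FC -0.75, SE 0.20, edgeR adjusted p = 0.0305), but its call ended without KO treated library 2 or 3 or WT treated library 1, 2 or 3 (edgeR adjusted p between 0.0575 and 0.124). Cd86, the other CD28 ligand, had 1105, 1118 and 1136 CPM in KO treated, against 1335, 1490.0 and 1130.0 CPM in WT treated cells (edgeR adjusted p = 0.409), and Cd40 had 537, 595 and 797 CPM in KO treated, against 614, 758 and 758 CPM in WT treated cells (edgeR adjusted p = 0.568), with overlapping groups in both. Cd276, a checkpoint ligand, was higher with 11.6, 22.8 and 26.6 CPM in KO treated, against 1.48, 3.02 and 4.31 CPM in WT treated cells (log2FC 2.76, SE 0.52, edgeR adjusted p = 0.00527). The lower calls numbered 3 without KO treated library 2 or 3 or WT treated library 3, and the higher calls 1 without KO treated library 3 or WT treated library 3.

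MHC class II genes, which present peptides to CD4+ T cells, fell in 3 of 16 cases, against 4.89% of all tested genes. None rose (median log2FC -0.25). Cd74 had 13070.0, 12510.0 and 11590.0 CPM in KO treated, against 16290.0, 19900.0 and 18590.0 CPM in WT treated cells (log2FC -0.56, SE 0.14, edgeR adjusted p = 0.023). The call ended without KO treated library 2 or 3 or WT treated library 2 or 3 (edgeR adjusted p between 0.0668 and 0.0979), and without any 1 of these no gene of the list was called lower. H2-Aa and H2-Ab1, the chains of I-A, had log2 fold changes of -0.48 (edgeR adjusted p = 0.0541, 0.015 under the block and 0.0346 without KO treated library 1) and -0.46 (edgeR adjusted p = 0.0889, or 0.0159 under the block). The block raised the number of lower class II genes to 6, with 1 higher, and scaling by library totals left 1 lower. Of 23 MHC class I genes 2 rose, no more than the 9.21% of all tested genes, or 3 under the block and 5 with library totals as the scale, 1 of them kept without KO treated library 2 or 3 or any 1 WT treated library, and that one, H2-T22, a non-classical molecule, had 141, 185 and 188 CPM in KO treated, against 96.7, 88.4 and 94.6 CPM in WT treated cells (log2FC 0.88, SE 0.18, edgeR adjusted p = 0.00683).

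**Figure D3:**
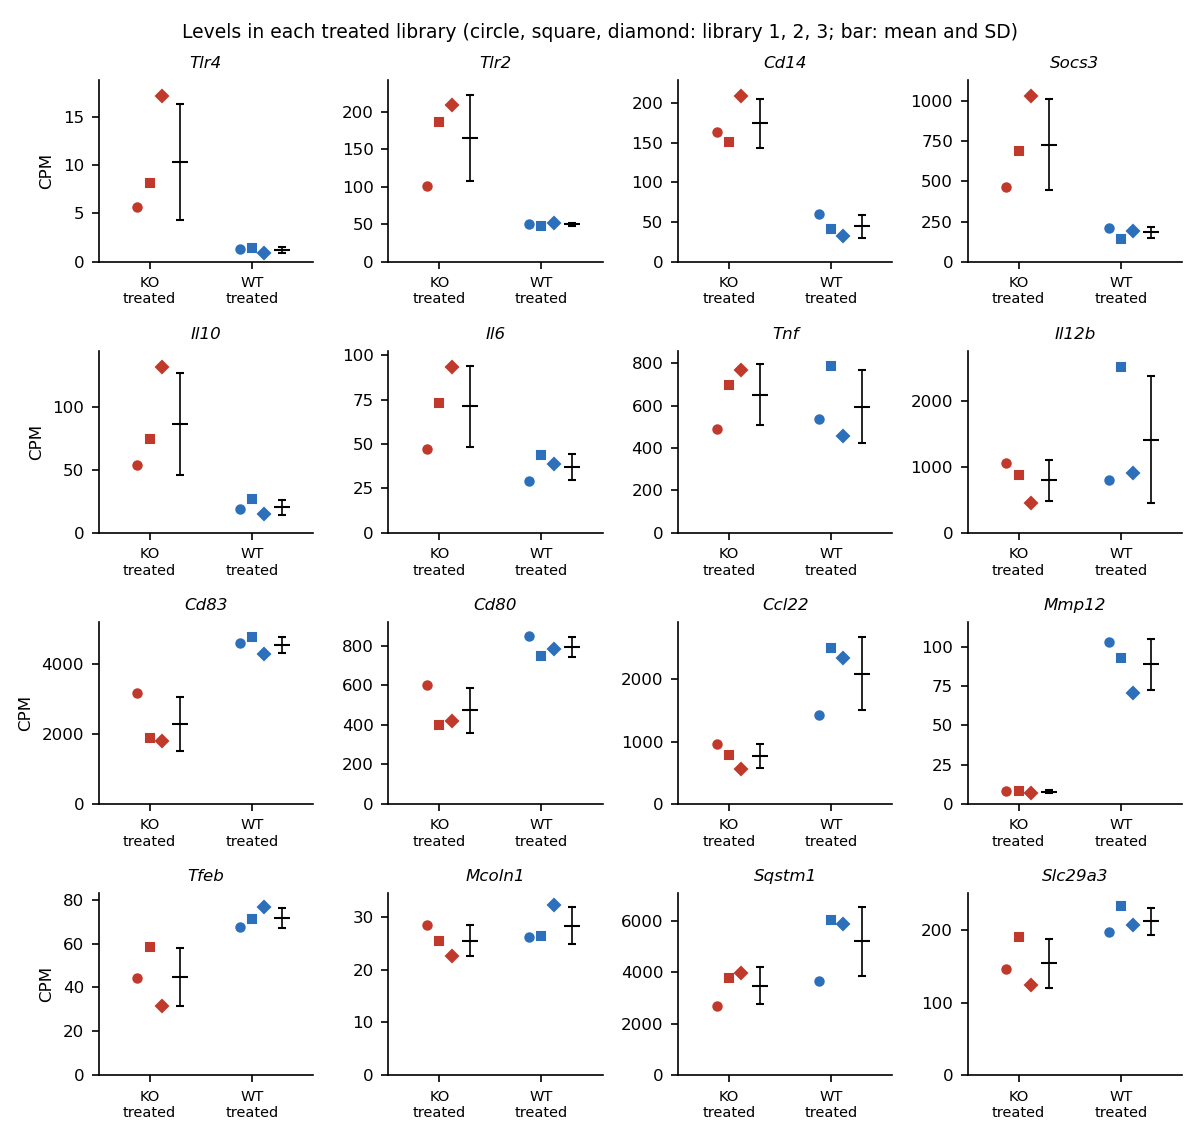
Level in CPM of 16 genes (1 panel each, linear axes starting at 0) in the 3 KO treated and 3 WT treated libraries, 1 symbol per library (circle, square and diamond for libraries 1, 2 and 3) with the group mean and SD as a bar beside them. The KO values of Tlr4, Tlr2, Cd14, Socs3, Il10 and Il6 lie above all WT values, those of Cd83, Cd80, Ccl22, Mmp12, Tfeb and Slc29a3 below, and the groups overlap for Tnf, Il12b, Mcoln1 and Sqstm1.

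Lysosomes degrade what a cell takes up, with hydrolases that work in acid. Of 61 tested hydrolases and membrane proteins, 20 rose, against 9.21% of all tested genes, 1 fell and 40 did not pass (median log2FC 0.37). Without WT treated library 3 there were 10 higher members, and between 10 and 22 with single libraries left out. Ctsd, an aspartic protease of lysosomes, had 104, 203 and 247 CPM in KO treated, against 33.9, 41.0 and 41.4 CPM in WT treated cells (log2FC 2.25, SE 0.36, edgeR adjusted p = 0.00227). Ctsl, a cysteine protease, had 30.1, 49.8 and 91.5 CPM in KO treated, against 13.7, 8.83 and 9.48 CPM in WT treated cells (log2FC 2.42, SE 0.43, edgeR adjusted p = 0.00395). Psap, the precursor of the saposins that help degrade sphingolipids, had 2472, 2551 and 2925 CPM in KO treated, against 1425, 1753 and 1200.0 CPM in WT treated cells (log2FC 0.86, SE 0.16, edgeR adjusted p = 0.00505). For these 3 genes every KO library lay above every WT library. Pla2g15, a lysosomal phospholipase, had 22.4, 32.3 and 55.6 CPM in KO treated, against 2.83, 1.86 and 2.23 CPM in WT treated cells (log2FC 4.00, SE 0.47, edgeR adjusted p = 0.000491), and Grn, the precursor of lysosomal granulins, had 246, 478 and 642 CPM in KO treated, against 76.7, 103 and 71.7 CPM in WT treated cells (log2FC 2.44, SE 0.35, edgeR adjusted p = 0.00138). Lamp1, a main protein of the lysosomal membrane, had 323, 465 and 549 CPM in KO treated, against 276, 304 and 254 CPM in WT treated cells (log2FC 0.68, SE 0.19, edgeR adjusted p = 0.0299), a call that ended without KO treated library 2 or 3 or WT treated library 1 or 3 (edgeR adjusted p between 0.0665 and 0.129). The 1 lower member, where the block called 4, was Ctns, the cystine exporter, with 13.2, 10.7 and 11.6 CPM in KO treated, against 17.2, 19.6 and 18.9 CPM in WT treated cells (log2FC -0.65, SE 0.14, edgeR adjusted p = 0.0104), which was not called without KO treated library 2 (edgeR adjusted p = 0.0539). Macrophages are rich in lysosomes. The summed macrophage list was 1380.0, 2680.0 and 4320.0 CPM in KO treated cells, against 536, 973 and 725 CPM in WT treated cells. The part of such cells in the lysosomal result was not tested.

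The channel named by the study's question did not pass the test. Mcoln1, which encodes TRPML1, had 28.4, 25.5 and 22.5 CPM in KO treated, against 26.2, 26.4 and 32.3 CPM in WT treated cells (log2FC -0.15, edgeR adjusted p = 0.431), and the groups overlapped. Of 25 genes for TRPML and other endolysosomal channels 2 rose, Tpcn2 and P2rx4, no more than the 9.21% of all tested genes. None fell, and none was called higher without KO treated library 3 or WT treated library 2. Tpcn2 was not called without WT treated library 3 either, and the block called 1 gene of the list lower. Tfeb, the master regulator of lysosomal genes, was lower with 44.2, 58.4 and 31.6 CPM in KO treated, against 67.5, 71.0 and 76.7 CPM in WT treated cells (log2FC -0.68, SE 0.19, edgeR adjusted p = 0.0294). The call ended without KO treated library 3 or WT treated library 2 or 3 (edgeR adjusted p between 0.0628 and 0.0906). Its relative Tfe3 had 128, 126 and 134 CPM in KO treated, against 137, 136 and 155 CPM in WT treated cells (edgeR adjusted p = 0.353). Gpnmb, a known target of these factors in macrophages, was higher with 5.09, 9.57 and 10.9 CPM in KO treated, against 2.68, 1.22 and 3.13 CPM in WT treated cells (log2FC 1.85, SE 0.39, edgeR adjusted p = 0.00884).

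Autophagy genes were mostly not called. Of 52 tested genes 3 rose and 3 fell, against 9.21% and 4.89% of all tested genes, and 46 did not pass (median log2FC -0.05). The counts were 1 higher and 1 lower without KO treated library 2 or 3 or WT treated library 3, and 5 and 5 under the block. Wipi1, which binds the lipid of forming autophagosomes, had 2.64, 4.29 and 1.82 CPM in KO treated, against 0.706, 0.697 and 0.711 CPM in WT treated cells (log2FC 2.04, SE 0.43, edgeR adjusted p = 0.00894). Gabarapl1, a member of the ATG8 family that coats autophagosomes, was lower with 118, 108 and 94.1 CPM in KO treated, against 167, 145 and 157 CPM in WT treated cells (log2FC -0.55, SE 0.10, edgeR adjusted p = 0.00444). Map1lc3b, the source of the autophagosome marker LC3B, had 94.0, 114 and 112 CPM in KO treated, against 106, 115 and 114 CPM in WT treated cells (edgeR adjusted p = 0.742). Sqstm1, the cargo receptor p62, had 2666, 3785 and 3978 CPM in KO treated, against 3651, 6040.0 and 5888 CPM in WT treated cells (log2FC -0.58, edgeR adjusted p = 0.098). It overlapped between the groups, and passed as lower under the block (edgeR adjusted p = 0.00444, and between 0.00324 and 1 over the 20 alternatives) and without WT treated library 1 (0.0304). Among 41 genes of the V-ATPase, Ragulator and lysosomal mTORC1 machinery 2 rose and 1 fell, against 9.21% and 4.89% of all tested genes. Under the block 3 rose and 2 fell. Neither higher call of the main fit stood without WT treated library 3. The lower one was Sesn2, a stress-induced sensor that restrains mTORC1, with 91.6, 112 and 112 CPM in KO treated, against 149.8, 172 and 192 CPM in WT treated cells (log2FC -0.70, SE 0.14, edgeR adjusted p = 0.00735).

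Besides Slc29a3, 3 nucleoside transporters could be tested, of which 2 rose. Slc29a1, the equilibrative transporter ENT1 of the cell surface, had 20.4, 28.9 and 35.5 CPM in KO treated, against 9.75, 10.1 and 7.63 CPM in WT treated cells (log2FC 1.63, SE 0.25, edgeR adjusted p = 0.00194). Slc28a2, a concentrative transporter that imports purine nucleosides, had 7.49, 8.47 and 12.3 CPM in KO treated, against 1.77, 1.63 and 0.853 CPM in WT treated cells (log2FC 2.74, SE 0.46, edgeR adjusted p = 0.0027). In both, the lowest KO library lay above the highest WT library. Slc29a2, the transporter ENT2, had 5.09, 2.61 and 3.08 CPM in KO treated, against 4.45, 3.25 and 7.63 CPM in WT treated cells (edgeR adjusted p = 0.34).

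Of 44 enzymes of purine and pyrimidine metabolism 11 rose and 2 fell, against 9.21% and 4.89% of all tested genes (median log2FC 0.11). The list had 5 higher without KO treated library 2 or 3 or WT treated library 3. It had 1 lower without KO treated library 3 and 4 lower under the block. Gda, which deaminates guanine, had 16.7, 24.5 and 20.5 CPM in KO treated, against 1.27, 1.28 and 2.18 CPM in WT treated cells (log2FC 3.68, SE 0.29, edgeR adjusted p = 5.57e-05). Rrm2, a subunit of ribonucleotide reductase, had 44.8, 41.4 and 29.4 CPM in KO treated, against 13.6, 10.6 and 7.91 CPM in WT treated cells (log2FC 1.86, SE 0.22, edgeR adjusted p = 0.000491), and Tyms, which makes thymidylate, had 10.5, 12.6 and 11.2 CPM in KO treated, against 4.73, 5.06 and 4.79 CPM in WT treated cells (log2FC 1.24, SE 0.17, edgeR adjusted p = 0.00105). All 3 genes were higher in each KO library. Of 18 receptors and ectoenzymes for extracellular ATP and adenosine 7 rose and 1 fell (median 0.78), with 3 higher and none lower without KO treated library 3. P2ry2, a receptor for ATP and UTP, had 20.9, 60.4 and 96.0 CPM in KO treated, against 7.77, 11.2 and 7.11 CPM in WT treated cells (log2FC 2.76, SE 0.51, edgeR adjusted p = 0.00505). Cd38, an ectoenzyme that consumes NAD, had 64.4, 67.2 and 79.5 CPM in KO treated, against 28.0, 34.9 and 20.3 CPM in WT treated cells (log2FC 1.34, SE 0.22, edgeR adjusted p = 0.00221).

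Fc receptors let phagocytes take up and react to particles coated with antibody. Of 11 Fc receptors 7 rose and none fell (median log2FC 1.77), and between 7 and 8 were called with single libraries left out. Fcgr4, an activating receptor for IgG, had 186, 437 and 769.6 CPM in KO treated, against 3.46, 7.38 and 1.8 CPM in WT treated cells (log2FC 6.79, SE 0.83, edgeR adjusted p = 0.000663). Fcer1g, the signalling chain shared by activating Fc receptors, had 197, 358 and 534 CPM in KO treated, against 80.8, 83.9 and 73.1 CPM in WT treated cells (log2FC 2.20, SE 0.35, edgeR adjusted p = 0.0023). Fcrl5, an immunoglobulin-binding relative, had 75.2, 156 and 262 CPM in KO treated, against 2.83, 6.57 and 3.17 CPM in WT treated cells (log2FC 5.29, SE 0.59, edgeR adjusted p = 0.00037). The lowest KO value of Fcgr4 was many times the highest WT value, and none of the 3 overlapped.

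Complement genes rose in 9 of 16 cases and fell in 1 (median log2FC 2.04), and 8 or 9 rose with any 1 library left out. C1qa, C1qb and C1qc, the chains of the molecule that starts the classical pathway, are also on the macrophage list. C1qb had 111, 191 and 412 CPM in KO treated, against 8.26, 8.31 and 1.66 CPM in WT treated cells (log2FC 5.32, SE 0.78, edgeR adjusted p = 0.00178). Cfp, properdin of the alternative pathway, had 96.7, 138 and 199.7 CPM in KO treated, against 50.3, 40.6 and 33.8 CPM in WT treated cells (log2FC 1.8, SE 0.27, edgeR adjusted p = 0.00192). The lower gene was C5ar2, a second receptor for C5a, with 0.479, 0.290 and 0.210 CPM in KO treated, against 4.31, 1.40 and 2.46 CPM in WT treated cells (log2FC -3.01, SE 0.56, edgeR adjusted p = 0.0047). Of 22 scavenger and efferocytosis receptors 7 rose and 2 fell, with 4 higher without KO treated library 2 and none lower without KO treated library 3. Of 23 C-type lectin receptors 7 rose and 2 fell, with 3 higher without KO treated library 2 or WT treated library 3, and 4 lower under the block. Clec4a3, an inhibitory lectin, had 34.6, 84.9 and 121 CPM in KO treated, against 4.10, 5.40 and 4.93 CPM in WT treated cells (log2FC 4.05, SE 0.52, edgeR adjusted p = 0.000688), and its family holds similar copies. Cd207, langerin, was lower with 3.00, 1.8 and 3.29 CPM in KO treated, against 21.3, 41.6 and 13 CPM in WT treated cells (log2FC -3.23, SE 0.57, edgeR adjusted p = 0.00386).

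Phagocyte defence genes rose in 9 of 22 cases and fell in 3 (median log2FC 0.14), with 4 higher without KO treated library 2 or WT treated library 3 and 1 lower without KO treated library 2 or WT treated library 2 or 3. Slc11a1, the gene of the phagosomal metal transporter NRAMP1, had 168, 298 and 436 CPM in KO treated, against 39.0, 67.4 and 45.3 CPM in WT treated cells (log2FC 2.57, SE 0.40, edgeR adjusted p = 0.00216), and it too is on the macrophage list. Sod2, the superoxide dismutase of mitochondria, had 97.5, 162 and 152 CPM in KO treated, against 51.9, 52.7 and 59.2 CPM in WT treated cells (log2FC 1.33, SE 0.17, edgeR adjusted p = 0.00057). Slc7a11, the cystine importer that feeds glutathione, was lower with 366, 420.4 and 332 CPM in KO treated, against 637, 774 and 1030.0 CPM in WT treated cells (log2FC -1.13, SE 0.20, edgeR adjusted p = 0.00413).

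LXR and PPARg are nuclear receptors that sense oxysterols and fatty acids and drive lipid efflux and storage. Of 26 genes of these receptors and their targets, 14 rose and 2 fell (median log2FC 0.79). Without KO treated library 3 the counts were 8 and 0, and the block left 1 lower. Nr1h3, which encodes LXRα, had 98.4, 235 and 379.5 CPM in KO treated, against 14, 16.0 and 14.6 CPM in WT treated cells (log2FC 4.00, SE 0.51, edgeR adjusted p = 0.000635). Pltp, a phospholipid transfer protein and LXR target, had 54.6, 148 and 201 CPM in KO treated, against 9.75, 5.81 and 7.58 CPM in WT treated cells (log2FC 4.13, SE 0.55, edgeR adjusted p = 0.000869). Pparg had 39.7, 79.4 and 123 CPM in KO treated, against 10.7, 14.9 and 10.2 CPM in WT treated cells (log2FC 2.76, SE 0.39, edgeR adjusted p = 0.00134). Each KO library lay above each WT library in these 3 genes. Plin2, a coat protein of lipid droplets, had 52.8, 132 and 194 CPM in KO treated, against 10.9, 20.9 and 9.29 CPM in WT treated cells (log2FC 3.20, SE 0.51, edgeR adjusted p = 0.00221).

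Of 35 genes of sterol and fatty acid synthesis 5 fell, against 4.89% of all tested genes, none rose and 30 did not pass (median log2FC -0.50). The count ran between 0 without KO treated library 2, KO treated library 3 or WT treated library 3 and 15 without KO treated library 1. The block called 16, and with library totals as the scale none was called. Msmo1, a demethylating enzyme of the pathway, had 116, 61.8 and 44.0 CPM in KO treated, against 148, 168 and 166 CPM in WT treated cells (log2FC -1.12, SE 0.33, edgeR adjusted p = 0.0393), and its call ended without KO treated library 2 or 3 or WT treated library 1, 2 or 3 (edgeR adjusted p between 0.0585 and 0.148).

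Cell cycle genes rose in 27 of 42 cases, none fell and 15 did not pass (median log2FC 0.84). Between 16 and 28 rose with single libraries left out, with 16 without KO treated library 2, and the block called 2 lower. Stmn1, a regulator of microtubules in dividing cells, had 73.5, 83.7 and 66.9 CPM in KO treated, against 44.8, 31.0 and 30.4 CPM in WT treated cells (log2FC 1.08, SE 0.16, edgeR adjusted p = 0.00164). Mcm2, a subunit of the replicative helicase, had 41.0, 54.2 and 35.0 CPM in KO treated, against 24.0, 24.4 and 19.2 CPM in WT treated cells (log2FC 0.95, SE 0.17, edgeR adjusted p = 0.00352). E2f1, a transcription factor of S phase entry, had 7.07, 11.5 and 10.0 CPM in KO treated, against 2.47, 2.85 and 2.46 CPM in WT treated cells (log2FC 1.87, SE 0.26, edgeR adjusted p = 0.000992). In each of them the groups lay apart. Cdt1, which loads the helicase, had 39.8, 71.9 and 83.4 CPM in KO treated, against 20.8, 15.7 and 11.3 CPM in WT treated cells (log2FC 2.03, SE 0.30, edgeR adjusted p = 0.00167).

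Stress and early response genes were lower in part. Of 29 genes of ER stress and the integrated stress response 7 fell, against 4.89% of all tested genes, and none rose (median log2FC -0.32). The list had 4 lower without KO treated library 2 or 3 or WT treated library 2 or 3, and 12 under the block. Herpud1, a factor of ER-associated degradation, had 326, 232 and 254 CPM in KO treated, against 441, 529 and 659 CPM in WT treated cells (log2FC -1.0, SE 0.17, edgeR adjusted p = 0.00308). Eif2ak3, the ER stress kinase PERK, had 32.2, 23.4 and 14.5 CPM in KO treated, against 48.9, 51.3 and 46.4 CPM in WT treated cells (log2FC -1.06, SE 0.22, edgeR adjusted p = 0.00927). Both were lower in each KO library than in each WT library. Of 30 immediate early factors and MAP kinase phosphatases 3 rose and 6 fell, against 9.21% and 4.89% of all tested genes. Without KO treated library 2 or WT treated library 3, 2 were lower. Egr1 and Egr3, related transcription factors, changed in opposite directions. Egr1 had 66.4, 75.4 and 153 CPM in KO treated, against 42.6, 24.9 and 36.3 CPM in WT treated cells (log2FC 1.5, SE 0.33, edgeR adjusted p = 0.0109), and Egr3 had 26.3, 11.1 and 15.7 CPM in KO treated, against 45.5, 46.5 and 47.1 CPM in WT treated cells (log2FC -1.39, SE 0.25, edgeR adjusted p = 0.00464). Dusp10, a phosphatase of p38 and JNK, had 14.7, 31.3 and 39.5 CPM in KO treated, against 4.45, 7.03 and 3.08 CPM in WT treated cells (log2FC 2.56, SE 0.36, edgeR adjusted p = 0.00114).

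Basic metabolism and protein synthesis were looked at last. Of 50 cytosolic ribosomal proteins none passed in either direction (median log2FC -0.10), or 1 in each under the block. Of 16 heat shock proteins none passed either, but the block called 2 higher and 1 lower, library totals as the scale 2 higher, and the fit without KO treated library 1, 3 higher. Of 40 nuclear-encoded respiratory chain subunits 1 rose, or 5 under the block and 8 with library totals as the scale, and none was called without KO treated library 2 or 3 or WT treated library 3. Of 34 genes of glycolysis, the pentose phosphate pathway and hypoxia 6 rose, against 9.21% of all tested genes, and 1 fell, a lower call that neither the block nor 4 of the 6 left-out libraries kept. Hk3, a hexokinase of myeloid cells, had 62.0, 88.7 and 161 CPM in KO treated, against 27.4, 28.9 and 20.3 CPM in WT treated cells (log2FC 2.02, SE 0.32, edgeR adjusted p = 0.00219). Of 12 transcripts of the mitochondrial genome, which encode respiratory chain subunits, 3 fell and none rose, against 4.89% and 9.21% of all tested genes (median log2FC -0.35). No member was called without KO treated library 2 or 3 or WT treated library 2, or with library totals as the scale. mt-Nd5, a subunit of complex I, had 750.5, 498 and 619.9 CPM in KO treated, against 946, 1077 and 795 CPM in WT treated cells (log2FC -0.59, SE 0.15, edgeR adjusted p = 0.0239), and its call ended without KO treated library 2 or 3 or WT treated library 1 or 2 (edgeR adjusted p between 0.0514 and 0.0965).

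**Figure D4:**
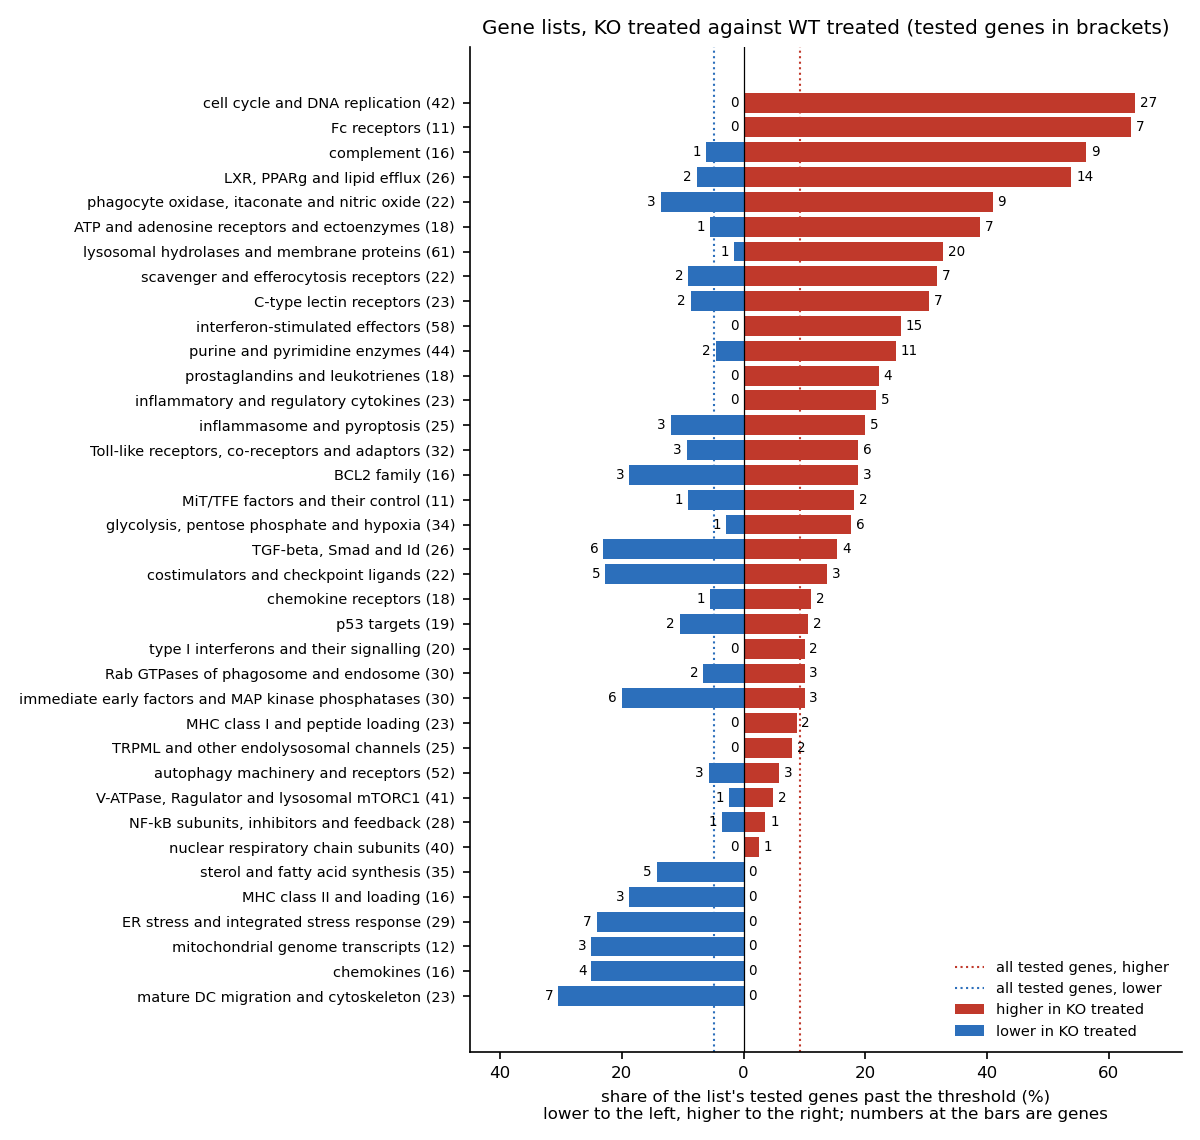
For each pathway list with at least 10 tested genes and a call, the share in percent of its tested genes that were higher (bars to the right) and lower (bars to the left) in KO treated than in WT treated cells at an edgeR adjusted p under 0.05, with the number of genes at each bar and all tested genes (9.21% and 4.89%) as dotted lines. Cell cycle (27 of 42), Fc receptor (7 of 11) and complement genes (9 of 16) have the largest shares of higher calls, and mature DC genes (7 of 23) the largest share of lower ones.

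Ranked by fold change among genes with groups that lay apart, the top of the higher genes was Apol11b, an apolipoprotein L gene, with 18.1, 13.3 and 10.7 CPM in KO treated cells and no count in WT treated cells, an at least 249-fold difference. It was followed by genes of red cell precursors. Rhag, an erythroid membrane channel, was at least 138-fold higher and Trim10, a ubiquitin ligase of red cell development, at least 128-fold, both with no count in WT treated cells. Aldh1a1, a retinaldehyde dehydrogenase, was at least 106-fold higher. Among the lower genes Mmp12, a macrophage elastase, had 8.15, 8.41 and 6.87 CPM in KO treated, against 103, 92.9 and 70.9 CPM in WT treated cells (log2FC -3.5, SE 0.17, edgeR adjusted p = 7.21e-07). H2-M2, a non-classical MHC class I gene, had 16.1, 10.7 and 12.6 CPM in KO treated, against 107, 86.7 and 146 CPM in WT treated cells (log2FC -3.11, SE 0.29, edgeR adjusted p = 0.000149). Gm8221, which the deposited table annotates as a pseudogene, so that its reads may be shared with a similar gene, had 51.0, 15.1 and 33.4 CPM in KO treated, against 335, 524 and 422 CPM in WT treated cells (log2FC -3.69, SE 0.51, edgeR adjusted p = 0.0011). In these 3 genes the highest KO library lay at a small part of the lowest WT library. Adgrl3, an adhesion receptor, had 8.45, 9.05 and 10.4 CPM in KO treated, against 34.2, 38.7 and 32.8 CPM in WT treated cells (log2FC -1.92, SE 0.20, edgeR adjusted p = 0.000199), and Dtx1, a regulator of Notch signalling and a marker on the cDC2 list, had 40.3, 29.8 and 16.4 CPM in KO treated, against 76.2, 63.6 and 87.3 CPM in WT treated cells (log2FC -1.39, SE 0.28, edgeR adjusted p = 0.00792).

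The genotype difference was then set beside the same difference without bacteria, which compares none of the same libraries, although both tests share 1 estimate of the spread. The comparisons are not independent, since same-numbered libraries of a genotype with and without bacteria deviated together from their group means (r over genes between 0.271 and 0.53 in KO and between 0.226 and 0.478 in WT cells). Among the 14293 genes, 1358 were higher (9.5%) and 494 lower (3.46%) in KO untreated than in WT untreated cells. Of the genes higher with bacteria, 930 were also higher without, which is 70.6% of the treated and 68.5% of the untreated list. Of the lower genes 260 were shared, 37.2% of the treated and 52.6% of the untreated list, and no gene was called in opposite directions. The log2 fold change had the same sign without bacteria for 98.2% of the higher and 96.3% of the lower genes. Without pairing, the test of the difference between the 2 genotype contrasts called no gene in either direction (0.0% higher and 0.0% lower, smallest edgeR adjusted p = 0.383), although 608 genes had an unadjusted p under 0.05 and DESeq2 called 6. Without KO treated library 1 edgeR called 8. With same-numbered libraries of a genotype as pairs, edgeR called 41 genes, 21 with a higher difference with bacteria (0.147% of tested genes) and 20 with a lower one (0.14%), while limma-voom with the pairs as a random effect called 0 and had 1119 genes with an unadjusted p under 0.05. This fit was chosen after seeing the data.

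Of the genes named here, the smallest paired p was that of Spic, whose log2FC was 2.04 with bacteria and 0.39 without (difference in the paired fit 1.56, SE 0.15, edgeR adjusted p = 0.000259). It had 181, 319.7 and 583 CPM in KO treated cells, against 70.2, 94.6 and 98.1 CPM in WT treated cells, and 98.1, 144 and 211 CPM in KO untreated cells, against 93.7, 116 and 136 CPM in WT untreated cells. Egr1 had a log2FC of 1.5 with bacteria and -0.14 without (difference 1.61, SE 0.21, edgeR adjusted p = 0.00381), and Il27, a cytokine subunit, of 0.08 and 3.02 (difference -2.93, SE 0.51, edgeR adjusted p = 0.0246). The difference was thus positive for Egr1 and negative for Il27, and these 3 genes were picked for their paired values. Slc40a1, Id3 and Pparg passed the paired fit too, with differences of 1.26, 1.31 and 0.89 (edgeR adjusted p = 0.00521, 0.0246 and 0.0312). So did Hmox1 of the macrophage list (0.85, edgeR adjusted p = 0.0164) and Lcn2 of the neutrophil list (-1.73, edgeR adjusted p = 0.0118). Grn had a log2FC of 2.44 with bacteria and 2.63 without, and Mmp12 of -3.5 and -3.22, differences that did not pass (edgeR adjusted p = 0.73 and 0.761 in the paired fit). Il33 passed with bacteria (log2FC 5.24, edgeR adjusted p = 0.00133) and not without (0.82, edgeR adjusted p = 0.803), at 0, 0.104 and 0.0948 CPM in KO untreated cells, against 0, 0.102 and 0 CPM in WT untreated cells, but the difference did not pass (edgeR adjusted p = 0.407 in the paired fit). Sod2 likewise passed with bacteria and not without (log2FC 0.36, edgeR adjusted p = 0.18), with a difference short of the threshold (edgeR adjusted p = 0.0502 in the paired fit).

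**Figure D5:**
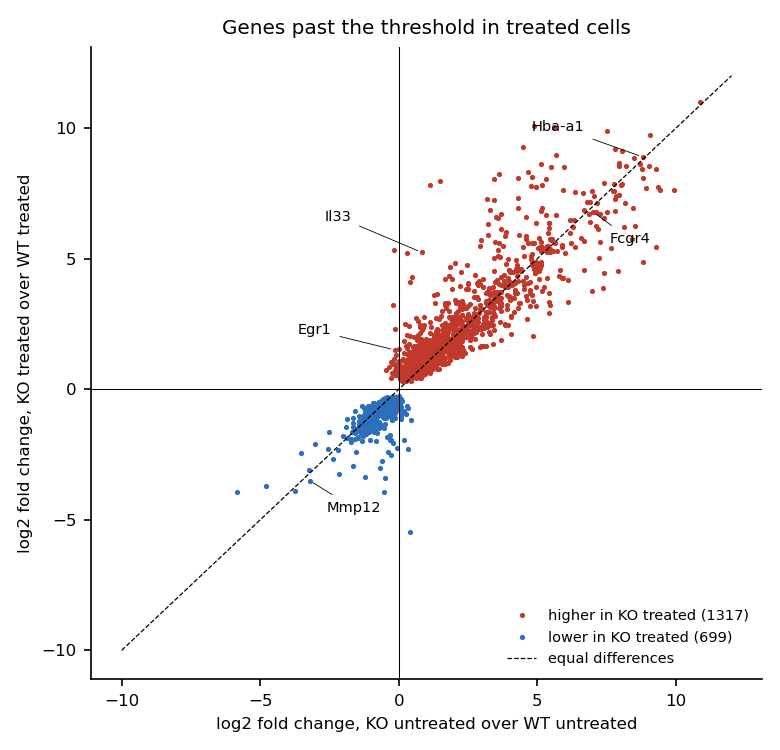
Log2 fold change of KO over WT with bacteria (vertical axis) against the same without bacteria (horizontal axis) for genes called in the treated comparison, with red for higher and blue for lower genes and a dashed line of equal differences. The axes share no library, but same-numbered libraries deviate together. Most points lie in the quadrants of equal sign (98.2% of higher and 96.3% of lower genes).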

How the data were processed

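The authors deposited raw counts per gene for the 12 libraries, 3 in each of 4 groups, as 1 table of 54532 genes, of which 203 share a symbol with another. Per the submitters' processing notes, bases were called with CASAVA 1.8 and reads aligned to mm10 with HISAT2, whose version is not stated. Which tool counted reads, with which strand setting and annotation, is not given in the sources used here, so reads of antisense or overlapping genes cannot be told apart. Per the labels' protocols, libraries were made with random hexamers from total RNA.

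The analysis of counts used edgeR 4.0.16 (R 4.3.3). Genes kept by filterByExpr (14293) were scaled with TMM factors and fitted by a robust quasi-likelihood model to the 12 libraries together, with 4 group terms. P-values were adjusted by Benjamini-Hochberg over all tested genes, with a threshold of 0.05. The SE was derived from the F statistic, as |log2 fold change| / √F. The procedure was tested on simulated data. Counting intervals and floors cover counting error only.

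The members and lists were chosen with earlier results of these data known. The 57 lists held 1280 symbols, of which 1274 were found and 1171 tested. Named genes were a fixed set of 29, the 12 largest changes in each direction with groups apart and at least 5 CPM, and genes of each list. Per list these were up to 4 called genes by fold change and 2 uncalled genes by mean level in the treated libraries. Outside that rule, Alas2, Ngp, Csf3r, Spic, Slc40a1, Csf1r, Gbp3, Gbp5, Gbp7, Unc93b1, Tlr5, Cd180, Nlrp3, Icosl, Tnfsf4, Samsn1, Psap, Ctsd, Ctsl, Lamp1, Ctns, Pparg, Plin2, Cd38, Tyms, Mcm2, Stmn1, Sod2, Fcer1g, Cfp, C5ar2, Unc5b, Pcbd1 and Gm26947 were chosen after their values were seen.

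Library numbers 1 to 3 recur in each group with no meaning given. Deviations from the group means of same-numbered KO treated and WT treated libraries correlated with r = 0.314, 0.171 and 0.115 over genes, each above 0.1. Over autosomal genes alone r was 0.249, 0.154 and 0.0872, the last below 0.1. The main fit held no block. An alternative fit gave same-numbered libraries of all 4 groups a shared term, the block on library number. No label states this link between libraries, which rests on the data alone. Library 1 of each group had Y-linked reads and libraries 2 and 3 had Xist reads, so the block also holds sex. A sex term alone gave 1683 higher and 1166 lower genes, against 1748 and 1194 under the block. The part of sex in the block's calls was not tested. The fit with this block is given where it changes the call of a named gene or moves the count of a described list by over 1.5 times. Same-numbered libraries with and without bacteria also deviated together within a genotype (r between 0.226 and 0.53). Alternatives were other scalings, filters, a fold threshold, a sex term, the 6 treated libraries alone, limma 3.58.1 (voom) and DESeq2 1.42.0. Each of the 6 treated libraries was also left out in turn, but no untreated library. Promoters (RefSeq, GRCm38.p6, 250 bases before the start) were at hand for 10007 tested genes. Figures were drawn with matplotlib 3.10.9.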

Additional observations from a re-analysis of the deposited data

How the results depend on the processing

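No gene called in KO treated against WT treated cells changed sign in any of the 20 alternatives. Scaling by DESeq2 size factors or upper quartiles, other filters on low counts, protein-coding genes alone and limma-voom kept the numbers of higher and lower genes within 1.5 times of 1317 and 699. A minimum fold of 1.5 left 596 higher and 53 lower genes. The lower genes numbered 312 with library totals as the scale, 196 with the 6 treated libraries alone, 1095 with DESeq2 and 1166 with a sex term. With the library number as a replicate block they numbered 1194, and 397 with the block in the 6 treated libraries alone. With single libraries left out the higher genes ranged between 793 and 1767 and the lower genes between 209 and 1121. The log2 fold change of Slc29a3 ranged between -0.65 and -0.33 with single libraries left out, and was -0.65 without KO treated library 2 (edgeR adjusted p = 0.0374) and -0.48 under the replicate block (edgeR adjusted p = 0.0383). For the difference between the genotype contrasts with and without bacteria, edgeR called 0 genes, and 608 had an unadjusted p under 0.05. DESeq2 called 6, and leaving out single treated libraries gave between 0 and 8 with edgeR. No untreated library was left out. A replicate block within genotype, chosen after seeing the data, gave 41 with edgeR and 0 with limma-voom. The causes of these changes in number were not tested. Fits with libraries left out also held fewer libraries, and the part of that was not tested either. Of 223 called genes of the named set, 111 kept their call in all 20 alternatives and 136 with each of the 6 libraries left out, and of 118 uncalled genes 77 passed in no alternative. The treated libraries held 15693172 to 24074596 counts, with 3 libraries a group. How far depth and group size limit the calls near the threshold was not tested.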

Other observations

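Genes around Slc29a3 were counted because a mutant allele is carried with its neighbours. Within 1 Mb of Slc29a3 on chromosome 10, 4 of 21 tested genes were higher in KO treated cells and none lower. These were Psap, Unc5b, a netrin receptor, Pcbd1, a cofactor enzyme, and Gm26947, an antisense gene whose reads cannot be told from those of the other strand. Within 20 Mb, 14.5% of 235 tested genes were called in either direction, against 14.4% of 425 genes on the rest of chromosome 10 and 14.1% of 13632 genes on other chromosomes. Psap had 2472, 2551 and 2925 CPM in KO treated cells, against 1425, 1753 and 1200.0 CPM in WT treated cells, and these groups did not overlap. Unc5b was low in both groups (log2 fold change 3.31, edgeR adjusted p = 0.0259), and Pcbd1 had no count in any WT treated library. Pcbd1 and Gm26947 were not called without KO treated library 3 or WT treated library 3, and Unc5b was not without either of these or WT treated library 2.

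Genes of prostaglandin synthesis and of the TGF-beta pathway were not described above. Of 18 prostaglandin and leukotriene genes 4 rose and none fell, or 1 fell under the block. Ptgs1, the constitutive cyclooxygenase, had 4.91, 7.43 and 13.5 CPM in KO treated, against 0.282, 0.291 and 0.0948 CPM in WT treated cells (log2FC 5.29, SE 0.67, edgeR adjusted p = 0.000635). Hpgd, which inactivates prostaglandins, had 4.19, 5.22 and 6.38 CPM in KO treated, against 0.918, 0.988 and 1.19 CPM in WT treated cells (log2FC 2.33, SE 0.46, edgeR adjusted p = 0.00664). Ptgs2, the inducible cyclooxygenase, had 347, 274 and 197 CPM in KO treated, against 443, 243 and 282 CPM in WT treated cells (edgeR adjusted p = 0.766), and its groups overlapped. Of 26 genes of TGF-beta, Smad and Id factors 4 rose and 6 fell, against 9.21% and 4.89% of all tested genes, with 2 lower without KO treated library 2 or WT treated library 3 and 2 higher without KO treated library 2 or 3 or WT treated library 1. Id3, a helix-loop-helix inhibitor, had 11.9, 19.0 and 28.3 CPM in KO treated, against 2.33, 1.69 and 1.94 CPM in WT treated cells (log2FC 3.31, SE 0.41, edgeR adjusted p = 0.000603), and Smad1, a signal carrier of bone morphogenetic proteins, had 53.3, 91.8 and 122 CPM in KO treated, against 27.6, 33.4 and 32.4 CPM in WT treated cells (log2FC 1.51, SE 0.26, edgeR adjusted p = 0.00363). Both were higher in each KO library. In the BCL2 family 3 of 16 rose and 3 fell, against 9.21% and 4.89% of all tested genes. The family had 1 higher without KO treated library 2 or WT treated library 1. It had 1 lower without KO treated library 2 or WT treated library 2 or 3. Bcl2, which blocks cell death, had 8.81, 16.4 and 23.8 CPM in KO treated, against 4.59, 2.27 and 2.46 CPM in WT treated cells (log2FC 2.40, SE 0.45, edgeR adjusted p = 0.00494), and Bmf, which promotes it, was lower with 8.99, 7.48 and 5.54 CPM in KO treated, against 17.8, 20.5 and 27.1 CPM in WT treated cells (log2FC -1.57, SE 0.25, edgeR adjusted p = 0.00227).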
